A study of Mus musculus with 6 samples.

Results

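The 32 genes described here encode the machinery of mitosis, and they were taken by symbol from a table of 20938 genes. They comprise cyclins and kinases, spindle checkpoint and anaphase-promoting complex genes, centromere and kinetochore genes, spindle motors, genes of cytokinesis, and the proliferation genes Mki67, Top2a and Foxm1. All 32 were found and all were above 0 in every sample. RNA was sequenced from RAW264.7, an established mouse line of macrophage character able to become bone-resorbing osteoclasts. The labels give bone marrow as the source and macrophage as the cell type. One group (NBIF, n = 3) received neobavaisoflavone, a plant isoflavone, at 8 µM, and the other (DMSO, n = 3) received an equal volume of the solvent. Both groups were put under osteoclast-inducing conditions, and no uninduced group is used here. The inducing agent and the time of harvest are not given. No label says whether each sample was its own culture. The p-values measure the spread between samples, and that spread may be technical.

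Cells enter mitosis when cyclin B binds and activates the kinase Cdk1, with Plk1 and the Aurora kinases acting beside it. The spindle checkpoint holds back the anaphase-promoting complex, a ubiquitin ligase, until every kinetochore is attached to microtubules, after which cyclin B is destroyed and the cell divides. Transcripts of these genes peak in G2 and M phase under the MuvB, B-MYB and FOXM1 regulators and drop when cells leave the cycle. Osteoclasts form by fusion of precursors and do not divide, while their mononuclear precursors can. In bulk RNA, fewer dividing cells and less mitotic RNA per dividing cell cannot be told apart.

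The promoters of many G2/M genes carry CCAAT boxes, bound by NF-Y, and a CHR element, bound by MuvB complexes. RefSeq promoters (GRCm38.p6, 250 bases before to 50 after the start, 300 in all) were matched by symbol for 27 of the 32 genes. A CHR match (TTTGAA or TTCGAA, either strand) was found in 21 of the 27 (77.8%), beside 21.7% of 27025 genes with a promoter in the table. A CCAAT match on either strand was found in 20 (74.1%), beside 41.1% of all genes, and both motifs in 18 (66.7%), beside 8.61% of all genes and 6.92% of 8082 tested genes. At least 1 match to an E2F motif was found in 4 (14.8%), above the 10.9% of all genes and below the 20.5% of tested genes. The E2F motifs searched on both strands were TTCCCGC as one form, TTGGCGC as another, TTCGCGC as the third and TTGCCGC as the last. No motif contains another, and a match is not evidence of binding. The following lines give 200 bases up to the start site, 5′ to 3′, for the 5 most abundant genes with both motifs and for Ube2c, whose level changed with NBIF. Capitals mark CCAAT and CHR matches on either strand, and the line for Prc1 is that of its second listed start site.
Ube2c (chr2:164769729-164769928, plus strand): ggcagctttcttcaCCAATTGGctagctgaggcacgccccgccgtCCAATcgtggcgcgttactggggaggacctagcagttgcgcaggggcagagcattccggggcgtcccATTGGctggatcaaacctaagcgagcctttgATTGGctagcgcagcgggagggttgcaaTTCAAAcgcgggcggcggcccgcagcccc
Bub1b (chr2:118598011-118598210, plus strand): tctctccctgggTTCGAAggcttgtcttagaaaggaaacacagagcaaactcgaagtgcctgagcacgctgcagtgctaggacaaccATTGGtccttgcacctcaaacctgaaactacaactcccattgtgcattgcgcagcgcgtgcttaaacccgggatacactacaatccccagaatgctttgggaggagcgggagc
Mki67 (chr7:135716380-135716579, minus strand): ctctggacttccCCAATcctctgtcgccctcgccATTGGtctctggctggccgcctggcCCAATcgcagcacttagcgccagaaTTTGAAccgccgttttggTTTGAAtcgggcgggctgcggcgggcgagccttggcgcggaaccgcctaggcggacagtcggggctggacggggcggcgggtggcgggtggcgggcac
Prc1 (chr7:80294276-80294475, plus strand): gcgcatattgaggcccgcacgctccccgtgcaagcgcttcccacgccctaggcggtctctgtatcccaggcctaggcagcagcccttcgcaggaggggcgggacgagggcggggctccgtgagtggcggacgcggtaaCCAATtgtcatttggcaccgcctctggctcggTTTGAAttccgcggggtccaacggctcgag
Top2a (chr11:99024190-99024389, minus strand): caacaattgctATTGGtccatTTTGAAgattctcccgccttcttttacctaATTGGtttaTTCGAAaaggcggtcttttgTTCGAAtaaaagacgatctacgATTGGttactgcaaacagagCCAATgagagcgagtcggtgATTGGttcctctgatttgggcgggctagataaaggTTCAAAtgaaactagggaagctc
Cdc20 (chr4:118437344-118437543, minus strand): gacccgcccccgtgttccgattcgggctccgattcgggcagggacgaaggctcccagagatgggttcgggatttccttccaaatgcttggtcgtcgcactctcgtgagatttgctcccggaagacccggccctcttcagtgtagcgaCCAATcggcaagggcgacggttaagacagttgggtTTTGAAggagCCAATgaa
The same pair of motifs stood in promoters of genes that changed and of genes that did not pass. Of the 18 genes with both, 15 were tested, 3 of these (Ube2c, Cenpf and Kif23) changed with NBIF and 12 did not pass the test, while 18.6% of all tested genes changed.

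Levels are in FPKM (sequenced fragments relative to transcript length and library size), and 13073 to 13415 genes were above 0 in a sample. The low values put relative depth at 0.886 to 1.09 times that of DMSO 1, while absolute depth is unknown. Pairs of samples correlated at r = 0.993 to 0.996 when from one group and 0.986 to 0.989 when from different groups, on the log2 scale over all tested genes, as a description. Genes averaging at least 1 FPKM were tested on log2(FPKM + 1) with limma, and a change was called at a Benjamini-Hochberg adjusted p under 0.05 over 9936 genes. Of these, 10.5% were higher and 8.08% lower with NBIF (1047 and 803 genes), a balance that turned to 705 higher and 1003 lower after median-ratio scaling. Without NBIF 1, 496 were higher and 510 lower, and 582, 597 and 609 were higher without NBIF 2, NBIF 3 and DMSO 1. The macrophage label fits Cd68 at 650.5 ± 14.2 FPKM with NBIF and 766.7 ± 21.2 with DMSO (SD, n = 3 each), and the osteoclast protease gene Ctsk stood at 1724 to 2186 FPKM with NBIF and 2548 to 2746 with DMSO. Mertk, also a macrophage marker, was at 0 in all NBIF samples and averaged 0.0187 FPKM in DMSO. All 7 tested macrophage markers of 8 were lower with NBIF, with the 8 summing to 1400 to 1459 FPKM with NBIF and 2290 to 2461 with DMSO. Of 10 osteoclast markers, 9 were tested, 4 were lower and 1 higher, and they summed to 6023 to 6828 FPKM with NBIF and 7604 to 8199 with DMSO. Whether these shifts in cell state bear on the mitotic genes was not tested. Markers of B cells, neutrophils and erythroid cells each summed to at most 0.309 FPKM in any sample. Those of T cells summed to at most 1.17 FPKM, nearly all from Lck, and those of fibroblasts and osteoblasts to at most 1.36 FPKM.

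Mitotic transcripts were present at low levels in both groups. Their summed level differed between the groups by less than the SD of DMSO samples but more than that of NBIF samples. The FPKM of the 32 genes summed to 97.7, 99.1 and 95.4 with NBIF, and to 99.9, 96.7 and 102.5 with DMSO. The groups overlapped, with means of 97.4 ± 1.87 and 99.7 ± 2.88 FPKM (SD, n = 3 each). Every one of the 32 lay below the median of all tested genes, which was 14.4 FPKM, and the most abundant was Bub1b at a mean of 11.9 FPKM. The filter kept 22 genes and left 10 untested, with Plk1 just inside it at 1.01 FPKM and Kif2c just outside at 0.997 FPKM. DMSO 3 held the highest value of 12 of the 32 genes and the lowest of 6, while the other 5 samples each held the highest value of 2 to 5 genes. The median coefficient of variation of the 22 tested genes was 10.9% in NBIF and 10.2% in DMSO, beside 5.10% and 6.61% over all tested genes, which are more abundant.

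**Figure D1:**
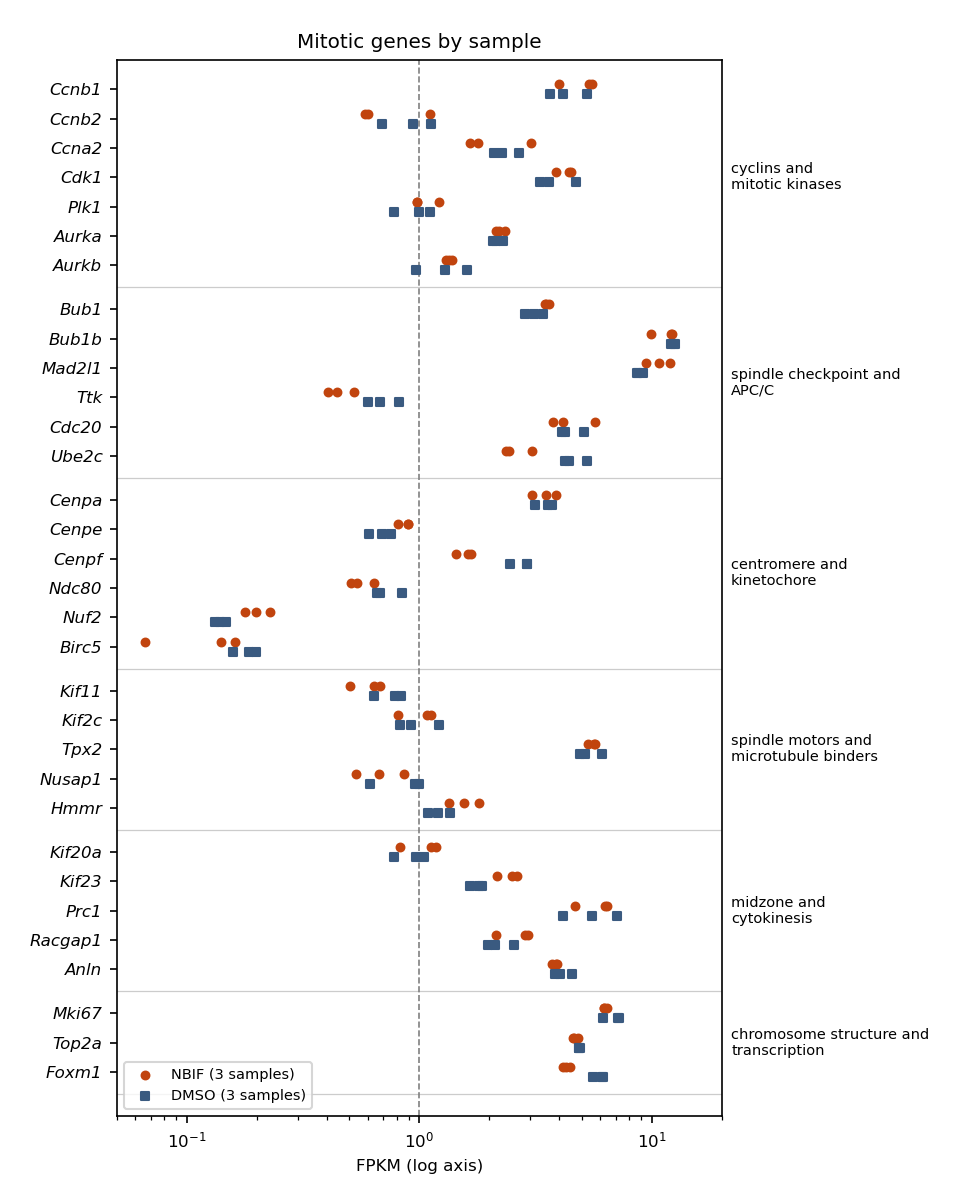
FPKM (log axis) of each of the 32 mitotic genes in each sample, grouped by role, with NBIF samples as circles above DMSO samples as squares. The dashed line marks 1 FPKM, the mean above which genes were tested. Most genes have overlapping groups, and Ube2c, Cenpf and Foxm1 lie to the left with NBIF.

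Ube2c, Cenpf and Foxm1 fell with NBIF, Kif23 rose, and the other 18 of the 22 tested genes did not pass. That is 18.2% called, beside 18.6% of all tested genes, so the number called is close to the background and does not set the mitotic genes apart. The groups did not overlap for 7 of the 22 (31.8%), beside 39.0% of all tested genes, and 5 of the 22 (22.7%) had an unadjusted p under 0.05, beside 33.3%. The median log2 change of the 22 was 0.04, equal to the 0.04 of all tested genes at this rounding, and 14 of the 22 changes were positive, beside 6059 of all 9936. The median size of the change without its sign was 0.11 for both, on log2(FPKM + 1). This scale shrinks changes of low genes more, and the 22 had a median level of 3.81 FPKM, beside 14.4 FPKM of all tested genes. Equal values therefore need not mean equal fold changes. On this scale the 95% intervals of the 18 genes that did not pass all lay within 0.5 in either direction. The half-widths of these intervals ran from 0.14 to 0.38, so smaller changes could not be seen. The bound of 0.5 does not carry over to fold changes of FPKM. With 0.1 added in place of 1, the log2 change of Hmmr went from 0.21 to 0.34 and that of Ccna2 from -0.11 to -0.16.

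**Figure D2:**
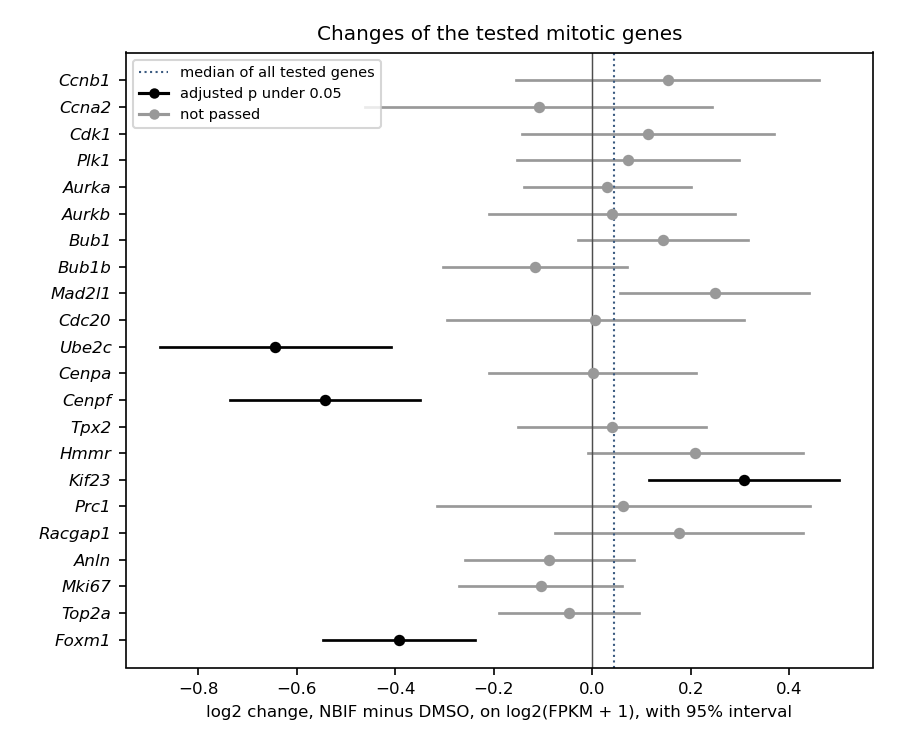
Log2 change (NBIF minus DMSO, on log2(FPKM + 1)) of the 22 tested mitotic genes, with 95% intervals from limma. Black marks genes with an adjusted p under 0.05 and grey the others, and the dotted line is the median of all 9936 tested genes. Ube2c, Cenpf and Foxm1 stand to the left at -0.64, -0.54 and -0.39, and Kif23 to the right at 0.31.

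Cyclins and mitotic kinases did not pass in any of the 6 cases tested. Ccnb1, which encodes cyclin B1, the activator of Cdk1, had 3.98, 5.37 and 5.54 FPKM with NBIF, against 5.25, 4.17 and 3.66 with DMSO. Each group had values near 4 and above 5, and the log2 change was 0.15 with a 95% interval of -0.16 to 0.46 (limma adjusted p = 0.464). Cdk1, the kinase that drives mitotic entry, had 4.39, 4.48 and 3.90 FPKM with NBIF, against 3.63, 4.75 and 3.30 with DMSO. The 4.75 of DMSO 2 exceeded all NBIF samples, and the log2 change was 0.11 (-0.14 to 0.37). Ccna2, the cyclin A2 gene that acts in S and G2 phase, had 3.02, 1.66 and 1.79 FPKM with NBIF and 2.27, 2.10 and 2.69 with DMSO. NBIF 1 was its highest sample and the other two NBIF samples its lowest, and 12.5% of its exonic bases are shared with Exosc9, a neighbouring gene.

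Aurka, whose product matures the spindle poles, averaged 2.23 ± 0.11 FPKM with NBIF and 2.16 ± 0.12 with DMSO (SD, n = 3 each), a log2 change of 0.03 with an interval of -0.14 to 0.20. Aurkb, the kinase of the chromosomal passenger complex that corrects faulty attachments, had 1.38, 1.298 and 1.34 FPKM with NBIF, against 0.970, 1.29 and 1.61 with DMSO. The NBIF values lay inside the spread of DMSO. Plk1, the Polo kinase of mitotic entry and spindle assembly, averaged 1.06 ± 0.14 FPKM with NBIF and 0.962 ± 0.17 with DMSO. Ccnb2, the second B-type cyclin gene, was below the filter at 0.768 ± 0.30 and 0.918 ± 0.22 FPKM, with overlapping groups.

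Of the genes that drive exit from mitosis, Ube2c fell and Cdc20 did not pass, and the difference between them was not tested. Ube2c (GENCODE M21, GRCm38 chromosome 2, 164769898 to 164778822), which encodes the E2 enzyme that primes substrates of the anaphase-promoting complex, had 2.43, 2.37 and 3.05 FPKM with NBIF, against 4.23, 4.42 and 5.29 with DMSO. Every NBIF sample lay below every DMSO sample, and the ratio of means was 0.563. Its log2 change was -0.64 ± 0.10 (SE; limma adjusted p = 0.00398), and -0.34 with a pseudocount of 5, which compresses low genes. Tnnc2, on the opposite strand, shares 22.8% of the exonic bases of Ube2c but stood at only 0.0338 FPKM. Cdc20, the activator of the same ligase, had 4.17, 3.78 and 5.72 FPKM with NBIF, against 4.10, 4.24 and 5.14 with DMSO. Sample 3 was the highest in both groups, and the log2 change was 0.01 with an interval of -0.29 to 0.31. Elovl1, at 41.5 FPKM, shares 2.84% of the exonic bases of Cdc20.

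The most abundant of the 32, Bub1b and Mad2l1, are spindle checkpoint genes. Bub1b, which encodes BubR1, an inhibitor of Cdc20, had 12.1, 12.3 and 9.91 FPKM with NBIF, against 12.5, 12.2 and 12.6 with DMSO. Only NBIF 3 stood clearly below the rest, and the gene did not pass (log2 change of -0.12, interval -0.30 to 0.07). Mad2l1, which encodes the checkpoint protein Mad2, had 9.45, 12.03 and 10.8 FPKM with NBIF, against 9.14, 8.73 and 8.67 with DMSO. All NBIF samples lay above all DMSO samples, with a log2 change of 0.25 and a limma adjusted p of 0.0741 (0.0373 without NBIF 1). Bub1, a checkpoint kinase at kinetochores, had 3.52, 3.49 and 3.62 FPKM with NBIF, against 2.84, 3.40 and 3.12 with DMSO. Its groups did not overlap either, but the log2 change of 0.14 did not pass (adjusted p = 0.226). Ttk, the kinase Mps1 that starts checkpoint signalling, was below the filter at 0.443, 0.523 and 0.407 FPKM with NBIF, against 0.678, 0.601 and 0.819 with DMSO. Its groups did not overlap, and in a fit without the filter its adjusted p was 0.0675.

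**Figure D3:**
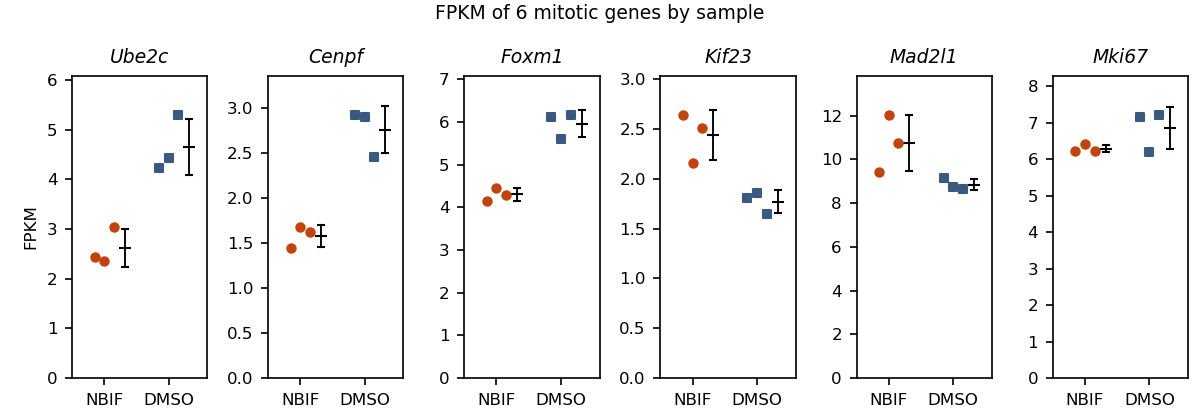
FPKM of Ube2c, Cenpf, Foxm1, Kif23, Mad2l1 and Mki67 in each sample, NBIF as circles and DMSO as squares, with the mean and SD (n = 3) beside the points and axes from 0. Groups are apart for the first 5 genes, of which Mad2l1 did not pass the test, and overlap for Mki67.

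Among centromere and kinetochore genes, Cenpf fell and Cenpa did not pass. Cenpf (chromosome 1, 189640606 to 189688086), a large kinetochore protein that appears in G2, had 1.45, 1.67 and 1.62 FPKM with NBIF, against 2.92, 2.90 and 2.45 with DMSO. The highest NBIF sample lay below the lowest DMSO sample, and the ratio of means was 0.572. Its log2 change was -0.54 ± 0.08 (SE; limma adjusted p = 0.00358). That change became -0.77 when 0.1 was added to the FPKM and -0.24 when 5 was added. Cenpa, the histone variant that marks the centromere, averaged 3.50 ± 0.42 FPKM with NBIF and 3.49 ± 0.30 with DMSO, a log2 change of 0.00 with an interval of -0.21 to 0.21.

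The other 4 genes of this role lay below 1 FPKM and were not tested. Ndc80 and Nuf2 encode partners in the complex that grips microtubules. Ndc80 had 0.508, 0.640 and 0.542 FPKM with NBIF, against 0.846, 0.676 and 0.656 with DMSO. Nuf2 had 0.178, 0.198 and 0.227 FPKM with NBIF, against 0.138, 0.132 and 0.148 with DMSO. The groups of both were apart, Ndc80 in the direction of lower and Nuf2 of higher values with NBIF. Their adjusted p without the filter was 0.194 and 0.0940. Cenpe, a kinetochore motor, averaged 0.865 ± 0.05 FPKM with NBIF and 0.684 ± 0.07 with DMSO, and its groups were also apart. Its limma adjusted p without the filter was 0.112. Birc5, which encodes survivin of the chromosomal passenger complex, was the lowest of the 32 with NBIF at 0.122 ± 0.05 FPKM, against 0.180 ± 0.02 with DMSO, while its partner gene Aurkb was above 1 FPKM in both groups.

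Spindle motors and microtubule binders did not pass in either case tested. Tpx2, the activator of Aurora A on the spindle, averaged 5.56 ± 0.19 FPKM with NBIF and 5.40 ± 0.64 with DMSO. Hmmr, a spindle pole protein, had 1.55, 1.802 and 1.34 FPKM with NBIF, against 1.35, 1.204 and 1.09 with DMSO. NBIF 3 fell just below DMSO 1, and the log2 change of 0.21 had an interval of -0.01 to 0.43 (limma adjusted p = 0.166). Kif11 (the bipolar spindle motor Eg5), Kif2c (a microtubule depolymerase) and Nusap1 (a microtubule bundler) averaged 0.608, 1.01 and 0.687 FPKM with NBIF, against 0.754, 0.987 and 0.857 with DMSO. The groups of all 3 overlapped, and Nusap1 shares 4.24% of its exonic bases with Oip5.

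Kif23 was the only one of the 22 tested genes called higher. Kif23 (chromosome 9, 61915905 to 61946774), the motor subunit of centralspindlin, which builds the midzone for cytokinesis, had 2.64, 2.16 and 2.51 FPKM with NBIF, against 1.81, 1.86 and 1.65 with DMSO. All NBIF samples lay above all DMSO samples, and the log2 change was 0.31 ± 0.08 (SE) at a limma adjusted p of 0.0365. The call did not hold without any 1 sample other than NBIF 2, nor with median-ratio scaling or quantile normalization, and held after rescaling to the same sum (adjusted p = 0.0297). Its adjusted p was 0.121 without NBIF 1, 0.109 without NBIF 3, 0.0850 without DMSO 1, 0.0624 without DMSO 2, 0.0813 without DMSO 3, 0.0593 without a filter, 0.0536 with median ratios and 0.0572 with quantiles. With a pseudocount of 5 its log2 change was 0.13. Racgap1, the other subunit of centralspindlin, had 2.94, 2.14 and 2.85 FPKM with NBIF, against 1.98, 2.13 and 2.55 with DMSO. NBIF 2 lay among the DMSO samples, and the log2 change of 0.18 did not pass (adjusted p = 0.305). Whether the changes of Kif23 and Racgap1 differ was not tested.

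The remaining genes of the midzone and cytokinesis did not pass or were not tested. Prc1, which cross-links midzone microtubules, varied widely within both groups, with 6.44, 6.31 and 4.68 FPKM with NBIF and 5.51, 4.14 and 7.10 with DMSO, and shares 11.1% of its exonic bases with Rccd1, at 4.15 FPKM. Anln, the scaffold of the contractile ring, averaged 3.84 ± 0.10 FPKM with NBIF and 4.15 ± 0.36 with DMSO (log2 change of -0.09, interval -0.26 to 0.08). Kif20a, a motor that carries the passenger complex to the midzone, was below the filter at 1.04 ± 0.19 and 0.934 ± 0.14 FPKM. As 29.3% of its exonic bases are shared with Cdc23, an anaphase-promoting complex gene at 15.7 FPKM, and the strand setting is unknown, its value is uncertain.

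Foxm1 fell while the proliferation markers did not pass. Foxm1 (chromosome 6, 128362967 to 128376146), which encodes a transcription factor of G2/M genes, had 4.16, 4.46 and 4.29 FPKM with NBIF, against 6.12, 5.60 and 6.16 with DMSO. The groups were well apart, with a ratio of means of 0.721. The log2 change was -0.39 ± 0.07 (SE) at a limma adjusted p of 0.00571, or -0.24 with a pseudocount of 5. Of genes known as its targets in other cells, Cenpf fell, while Ccnb1, Plk1, Aurkb and Cenpa did not pass, with log2 changes of 0.15, 0.07, 0.04 and 0.00. These genes are a choice and not a full set of its targets, and a link to Foxm1 was not tested. Mki67, which encodes the proliferation antigen Ki-67 that coats mitotic chromosomes, had 6.23, 6.40 and 6.24 FPKM with NBIF, against 7.16, 6.20 and 7.21 with DMSO. DMSO 2 lay below all NBIF samples, and the log2 change was -0.10 (-0.27 to 0.06; adjusted p = 0.347). Top2a, the topoisomerase that untangles sister chromatids, had 4.84, 4.59 and 4.63 FPKM with NBIF, against 4.85, 4.87 and 4.91 with DMSO. The groups barely missed overlapping, and the log2 change was -0.05 (-0.19 to 0.10).

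The fall of Foxm1 passed in all 16 alternative fits, and those of Ube2c and Cenpf in 15 of 16, the exception being a filter at 5 FPKM that left both untested. These counts of fits include each sample left out in turn.

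Other mitotic genes were similarly mixed. On a list of 66 kinetochore, spindle and cytokinesis genes, 34 were tested, 5 rose, 2 fell and 27 did not pass (20.6% called, beside 18.6% of all tested genes), with a median log2 change of 0.05. With 1 sample left out in turn, 2 to 3 rose and 0 to 3 fell. Mad1l1, which encodes Mad1, the kinetochore partner that recruits Mad2, had 42.0, 39.9 and 44.9 FPKM with NBIF, against 21.9, 18.8 and 21.6 with DMSO. NBIF samples were about double the DMSO samples, with a 2.04-fold ratio of means. The log2 change was 0.99 ± 0.07 (SE) at a limma adjusted p of 8.26e-05, larger in size than that of any of the 22 tested mitotic genes. Oip5, a centromere loading factor that overlaps Nusap1 on the opposite strand, rose by 0.41 on the log2 scale. The call was lost without NBIF 1, NBIF 2, NBIF 3, DMSO 1 or DMSO 2, with adjusted p between 0.0601 and 0.123. It was also lost without a filter (limma adjusted p = 0.0741), with median ratios (0.0538) and with quantiles (0.0567).

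Condensin, cohesin and the anaphase-promoting complex act in mitosis but are present throughout the cycle. Of 19 condensin and cohesin genes, 18 were tested, 1 rose, 0 fell and 17 did not pass (5.56% called, beside 18.6% of all tested genes). An unadjusted p under 0.05 was found for 3 of the 18 (16.7%, beside 33.3%). The cohesin subunit gene Rad21 rose to 135.9 ± 1.26 FPKM with NBIF, against 108.4 ± 6.93 with DMSO (log2 change of 0.33, adjusted p = 0.00466). Of 18 genes of the anaphase-promoting complex and its regulators, 17 were tested, 0 rose, 1 fell and 16 did not pass (5.88% called). In that list 35.3% had an unadjusted p under 0.05, beside 33.3% of all tested genes, and 47.1% had groups apart, beside 39.0%. The small subunit gene Anapc13 fell by 0.42 on the log2 scale, a call lost without NBIF 1, NBIF 2, DMSO 1 or DMSO 2 (adjusted p between 0.0530 and 0.0699). The call was also lost without a filter (limma adjusted p = 0.0647). The condensin and cohesin list and the anaphase-promoting complex list had median levels of 12.4 and 12.5 FPKM. These were above the 2.22 FPKM of the 32 mitotic genes and the 1.01 FPKM of the other mitotic genes.

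Among genes of earlier cell cycle steps, the share called did not exceed the 18.6% of all tested genes. Of 52 DNA replication genes, 47 were tested, 3 rose, 4 fell and 40 did not pass (14.9% called, median log2 change of 0.01). With 1 sample left out in turn, 1 to 3 rose and 1 to 4 fell, with 1 lower without NBIF 1, NBIF 3, DMSO 1 or DMSO 3. Uhrf1, which directs maintenance of DNA methylation, fell to 1.11 ± 0.11 FPKM with NBIF, against 1.95 ± 0.18 with DMSO, a log2 change of -0.48. Fen1, the flap endonuclease, rose by 0.45 (adjusted p = 0.0128, and 0.0530 without NBIF 1). The replicative helicase gene Mcm5 fell by 0.33, a call lost without NBIF 1, NBIF 2, NBIF 3, DMSO 1 or DMSO 3 (adjusted p between 0.0671 and 0.134). The call was also lost without a filter (limma adjusted p = 0.101) and after rescaling to the same sum (0.0501). All 15 genes of G1/S cyclins and regulators were tested, 2 rose, 0 fell and 13 did not pass (13.3% called). At an unadjusted p under 0.05, 3 were higher and 1 lower (26.7%, beside 33.3% of all tested genes). The groups were apart for 4 of the 15 (26.7%, beside 39.0% of all tested genes), all higher with NBIF. Ccnd2, a D-type cyclin gene, had 3.47, 3.45 and 2.84 FPKM with NBIF, against 1.26, 1.79 and 1.42 with DMSO. Cks1b, a subunit that docks cyclin-dependent kinases on their substrates, had 36.8, 37.7 and 35.2 FPKM with NBIF, against 21.8, 20.4 and 23.3 with DMSO. In both genes each NBIF sample was above each DMSO sample, with log2 changes of 0.77 and 0.72 (limma adjusted p = 0.00180 and 0.000196).

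The 15 genes of MuvB, MYB and the RB family include regulators that switch mitotic genes on and off. Of the 15 genes, 13 were tested, 1 rose, 0 fell and 12 did not pass (7.69% called, beside 18.6% of all tested genes). At an unadjusted p under 0.05, 4 were higher and 0 lower (30.8%, beside 33.3% of all tested genes). Tfdp2, a partner of E2F factors, rose by 0.28 on the log2 scale, and the call was lost without NBIF 1, NBIF 2 or DMSO 2 (adjusted p between 0.0519 and 0.0694). Of 18 CDK inhibitors and arrest genes, 15 were tested, 3 rose, 2 fell and 10 did not pass (33.3% called, beside 18.6%). With 1 sample left out in turn, 1 to 3 rose and 1 to 4 fell. Ccng1, which encodes cyclin G1, and Zmat3, which encodes an RNA-binding protein, rose by 0.32 and 0.26 on the log2 scale, and the Polo-like kinase gene Plk2 fell by 0.65. The other calls were Cdkn1a, which encodes the CDK inhibitor p21, and Trp53, which encodes p53, both named after their values were seen. Cdkn1a fell by 0.15 (limma adjusted p = 0.0445) and Trp53 rose by 0.19 (limma adjusted p = 0.0475). Ccng1, Zmat3, Plk2 and Cdkn1a are all known p53 targets, and they were called in both directions. They were picked from the called genes, and the 10 that did not pass also include known p53 targets. Activity of p53 was not tested. The calls of Cdkn1a and Trp53 were lost without any 1 sample other than DMSO 3. The adjusted p was then between 0.0954 and 0.143 for Cdkn1a and between 0.0756 and 0.146 for Trp53. Both calls were also lost with quantile normalization, without a variance trend and with a replicate block (limma adjusted p of 0.0595 to 0.0877). That of Cdkn1a was lost after rescaling to the same sum (0.0661), and that of Trp53 without a filter (0.0625) and with median ratios (0.107). The call of Ccng1 was lost without NBIF 1, NBIF 2 or NBIF 3, with adjusted p between 0.0671 and 0.0941. It was also lost without a filter (limma adjusted p = 0.0785) and with median ratios (0.0502). Differences between these lists and the 32 mitotic genes were not tested.

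**Figure D4:**
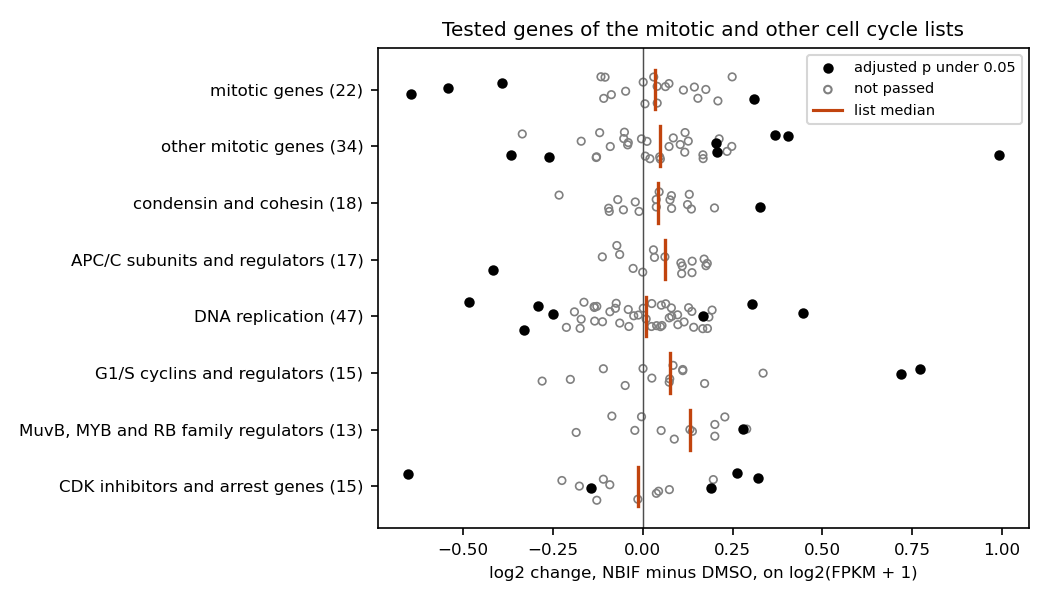
Log2 change (NBIF minus DMSO, on log2(FPKM + 1)) of each tested gene of the mitotic genes and 7 other cell cycle lists, with the number tested in brackets. Filled points have an adjusted p under 0.05, open points do not, the bar is the list median, and vertical scatter within a list has no meaning. Medians lie between -0.01 and 0.13, and the mitotic genes are centred at 0.04.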

How the data were processed

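RNA sequencing covered 6 samples of RAW264.7 cells, 3 with NBIF and 3 with DMSO, grouped by the treatment in the labels. The values are FPKM as deposited, in 1 table with a row for each gene symbol. Per the submitters' processing notes, which give no roles, the tools included HISAT2 2.0.5 and featureCounts 1.5.0-p3, and the build is the human GRCh38, although 99.6% of the symbols were found among mouse gene names. The build, annotation, gene lengths and strand setting behind the values are therefore uncertain, and coordinates come from GENCODE M21 (GRCm38), matched by symbol. FPKM values are not counts, so no count model was fitted, and absolute depth is unknown. Relative depth is the most frequent ratio to DMSO 1 among low genes, shared by 27 to 35 of the 305 to 354 usable in a sample.

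Testing used limma 3.58.1 (R 4.3.3) on log2(FPKM + 1), for genes averaging 1 FPKM or more (eBayes with a trend, two-sided, Benjamini-Hochberg over 9936 genes, threshold 0.05). Fold changes on this scale understate those of low genes. The code was checked on simulated data with independent noise, which cannot show effects of scaling or of samples that are not independent. The members and lists were chosen with earlier results of these data known, so no list was tested. The text names all 32 members and, from each other list, up to 3 genes that passed with groups apart, largest change first, except 1 gene that is not reported here. Promoters were printed for the 5 most abundant members with both motifs, and Ube2c was added after its values were seen. Alternatives were other pseudocounts, filters, scalings and variance priors, a replicate block, and each sample left out in turn.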

Additional observations from a re-analysis of the deposited data

How the results depend on the processing

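Over 16 alternatives, 324 of 334 values of the tested mitotic genes kept their side of the threshold, 9 lost it (each Kif23), 1 gained it (Mad2l1) and 0 called values reversed. Among values that passed under neither setting, 17 changed sign. Of 250 values of the other named cell cycle genes, 195 kept their side and 55 lost it. The number of mitotic genes called higher was 0 without a filter, at a filter of 5 FPKM, with median-ratio scaling or quantiles, and 0 to 1 with a sample left out (1 without NBIF 1, where it is Mad2l1, and 1 without NBIF 2). The number called lower was 1 at a filter of 5 FPKM, where fewer genes are tested and the median log2 change was -0.032, and 3 in every fit with a sample left out.

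With a sample left out, 496 to 1067 of all genes were higher and 510 to 822 lower. Likewise the other mitotic genes had 2 to 3 higher and 0 to 3 lower, the anaphase-promoting complex 0 to 1 higher and 0 to 1 lower, DNA replication 1 to 3 higher and 1 to 4 lower, G1/S regulators 0 to 1 lower, MuvB, MYB and RB genes 0 to 2 higher and 0 to 1 lower, and arrest genes 1 to 3 higher and 1 to 4 lower. Without a filter the other mitotic genes had 2 higher and 4 lower, the anaphase-promoting complex 0 lower, DNA replication 1 lower and arrest genes 1 higher. At a filter of 5 FPKM the anaphase-promoting complex had 0 lower, G1/S regulators 1 higher and arrest genes 1 lower. The other mitotic genes had 2 higher after median-ratio scaling and 2 after quantile normalization, and 1 lower without a variance trend, where condensin and cohesin had 1 lower. Arrest genes had 1 higher after median-ratio scaling, and 1 lower after rescaling to the same sum, after quantile normalization and without a trend. The cause of these shifts was not tested.

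Deviations of samples with the same replicate number correlated at 0.0784, 0.126 and 0.0355, and those of other pairs at -0.177 to 0.0974. With 3 samples in each group, these values cannot settle whether the numbers mark pairs. With the replicate number as a block, 0 mitotic genes were higher (Kif23, adjusted p = 0.0602) and 3 lower, the other mitotic genes had 3 higher, MuvB, MYB and RB genes 2 higher and arrest genes 1 lower. NBIF 2 and NBIF 3 correlated best with the DMSO sample of their own number, and NBIF 1 with DMSO 3 (0.0974). Low levels limit these results: all 32 genes lie below the median of tested genes, and absolute depth is unknown.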
